A study of Homo sapiens with 9 samples.

Results

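The Hippo pathway and YAP target genes are described here in NLS-actin cells, WT-actin cells and their parental HaCaT keratinocytes. The genes were taken from a list of 37 names, and 36 of them had a probe set of their own on the array, out of 19775 genes measured. These 36 genes were covered by 116 of 54613 probe sets. The only probe set of NUAK2, a kinase listed as a YAP target, is also annotated to another gene, and its signal is not reported. Unless stated otherwise, a gene's brightest probe set stands for it.

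The Hippo pathway restrains the co-activators YAP1 and WWTR1 (TAZ), which have no DNA-binding domain of their own. The kinases STK3 and STK4 (MST2 and MST1), with the scaffold SAV1, activate LATS1 and LATS2 with their partner MOB1A, and phosphorylation by LATS keeps YAP1 and WWTR1 out of the nucleus. Unphosphorylated YAP1 and WWTR1 enter the nucleus, bind the TEAD factors and raise the transcription of genes such as CCN1, CCN2 and ANKRD1, and in many cell types their activity follows actin tension and cell spreading.

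TEAD factors bind the sequence GGAATG, which was searched on both strands of the promoters, as GGAATG or its reverse complement CATTCC. RefSeq promoter windows (GRCh38.p14, 250 bases before to 50 after a transcription start) were at hand for 28 of the 37 listed genes, with 41 windows, and 10 windows of 10 genes held the sequence, against 14% of 35116 windows of all genes. It was found in 4 of the 10 windows of YAP targets (CCN2, ANKRD1, AXL and NUAK2). The CArG box, the element bound by SRF, was in 0 of the 41 windows and in 1.29% of all windows. Both windows below are shown because the results turn on these genes: CCN2 is a YAP target whose signal differed strongly between arrays of a line, and VGLL1 is the only gene of the list that differed between lines at an adjusted p under 0.05 in the fit of all 9 arrays. Capitals mark the TEAD sequence, with 3 occurrences before CCN2 and 1 on the opposite strand before VGLL1, whose first base lies at -157 from the start. A match in these letters is a description and was not tested as a binding site.
CCN2 promoter, chr6:131951323-131951622, minus strand: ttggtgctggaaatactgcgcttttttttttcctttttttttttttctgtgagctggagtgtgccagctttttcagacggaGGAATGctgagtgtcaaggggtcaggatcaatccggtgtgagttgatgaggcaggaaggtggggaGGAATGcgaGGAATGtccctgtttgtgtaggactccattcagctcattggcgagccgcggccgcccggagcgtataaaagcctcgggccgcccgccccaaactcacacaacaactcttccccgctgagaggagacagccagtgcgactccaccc
VGLL1 promoter, chrX:136531965-136532264, plus strand: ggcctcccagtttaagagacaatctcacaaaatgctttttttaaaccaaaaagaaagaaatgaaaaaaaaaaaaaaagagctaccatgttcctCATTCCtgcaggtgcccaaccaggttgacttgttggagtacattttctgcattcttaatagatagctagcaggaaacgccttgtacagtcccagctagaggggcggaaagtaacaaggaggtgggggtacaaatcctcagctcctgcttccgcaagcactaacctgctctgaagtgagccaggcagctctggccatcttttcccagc

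HaCaT is an immortalised human keratinocyte line. NLS-actin cells stably carry β-actin joined to EGFP and a nuclear localization sequence, WT-actin cells carry β-actin joined to EGFP without that sequence, and the parental line was not transfected. Both actin lines were transfected with Lipofectamine and kept in G418 until the GFP positive cells were a stable population, and all lines grew in DMEM with fetal bovine serum. There was 1 stable line per construct, so construct and line cannot be told apart, and cells with EGFP alone were not analysed here. There were 3 arrays per line, called experimental replicates, and the sources used here do not state whether they came from separate cultures, so that p values measure only the spread between these arrays. Of 10 keratinocyte markers 7 had a probe set of their own, and their summed signal was 58574 to 67664 in NLS-actin cells, 52379 to 78492 in WT-actin cells and 43800 to 59057 in the parental line. For 8 fibroblast markers it was 586 to 1309 in NLS-actin cells, 363 to 1182 in WT-actin cells and 592 to 1072 in the parental line, and 5 or 6 of them had a mean below 50 in each line. For melanocytes 6 of 7 markers were measured, with sums of 1746 to 2493 in NLS-actin cells and 1779 to 2361 in WT-actin cells. Parental arrays had 2509 to 2773, all above the actin lines, and 5 of the 6 markers had a mean below 50 in each line. Sums of endothelial and leukocyte markers were at most 231 and 51.8 on any array. Fewer cells of a type and less RNA per cell cannot be told apart in these bulk samples. NLS-actin replicate 2, WT-actin replicate 1 and parental replicate 2 deviated alike from the rest of their lines. CCN1, CCN2, AXL and AMIGO2 are among the targets that were lowest on them. For these genes the log2 fold change in NLS-actin over parental cells is given with and without the 3 arrays.

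The first question was whether pathway genes changed when actin was directed to the nucleus (NLS-actin over parental cells). None of the 36 genes reached an adjusted p under 0.05 in limma (0 of 36, against 0.131% of all genes), and 2 of them, AMOTL1 and ANKRD1, had an unadjusted p under 0.05, against 6.44% of all genes. Tukey's test also called 0. The median log2 fold change of the 36 genes was 0.00, with 18 above 0 (49.4% of all genes) and 18 below, and the median over all genes was -0.01. This median rests on the brightest probe set of each gene, and it was lower with a gene's probe sets averaged, as given below. In WT-actin over parental cells 1 gene, VGLL1, was called, and it was up-regulated (0.167% of all genes in either direction, 0.0405% upward), while 5 had an unadjusted p under 0.05 (VGLL1, DLC1, AMOTL1, AJUBA and YAP1, against 6.69% of all genes). In NLS-actin over WT-actin cells VGLL1 was again the only call and was lower (0.728% of all genes in either direction, 0.339% downward), with 4 genes at an unadjusted p under 0.05 (VGLL1, DLC1, TEAD1 and AJUBA, against 9.47% of all genes). The 3 comparisons share arrays in pairs, so that the VGLL1 calls are not independent of each other.

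The study's methods name a p cut-off of 0.05 with a fold above 2 and do not say whether p was adjusted. Here p was taken as unadjusted. By these thresholds, applied to every probe set with the limma fit, 4 genes passed in NLS-actin over parental cells, each on 1 probe set, against 6.41% of all genes. ANKRD1 was higher (2.32% of all genes) and LIMD1, PTPN14 and SAV1 were lower (4.17%). In WT-actin over parental cells 2 passed (5.53% of all genes), VGLL1 higher (1.52%) and SAV1 lower (4.07%). In NLS-actin over WT-actin cells 2 passed (8.23% of all genes), VGLL1 and LIMD1, both lower (3.55%).

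**Figure D1:**
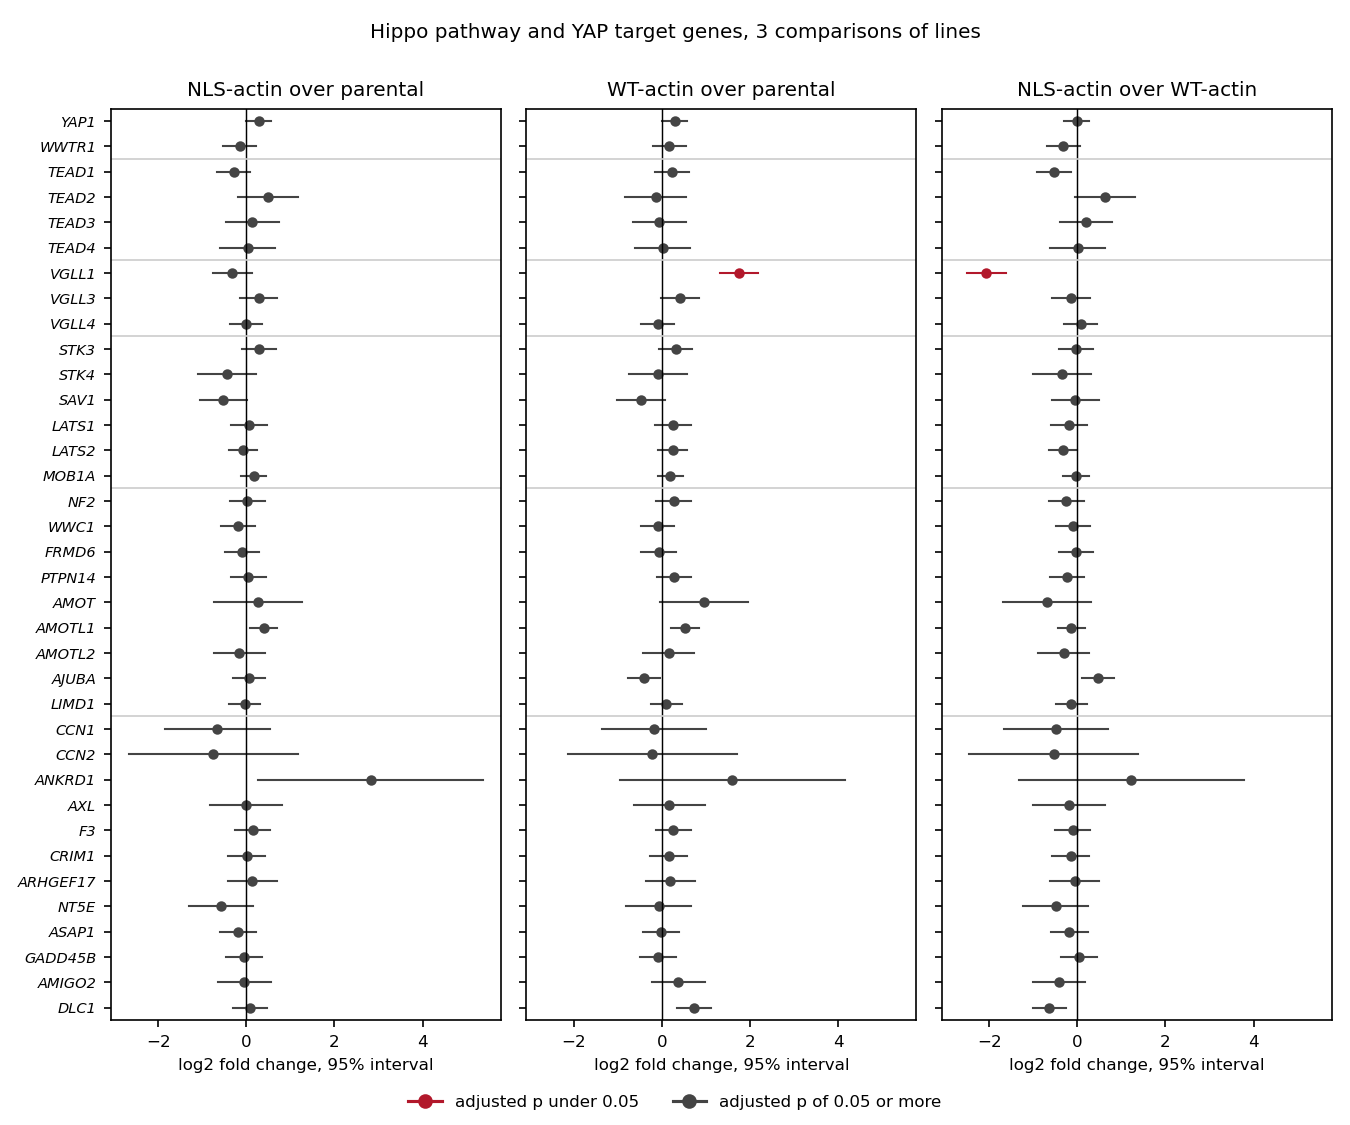
Log2 fold change (horizontal axis) of 36 Hippo pathway and YAP target genes in 3 comparisons of lines, with the 95% interval from limma over 9 arrays as bars and genes grouped by role between grey lines. VGLL1, in red, had a log2 fold change of 1.75 in WT-actin over parental cells and -2.06 in NLS-actin over WT-actin cells, and no other gene had an adjusted p under 0.05.

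VGLL1 belongs to the vestigial-like proteins, cofactors that bind TEAD factors and do not bind DNA themselves. Its signal was 860, 932 and 876 in NLS-actin cells, 4341, 4044 and 2919 in WT-actin cells and 1095, 1407 and 877 in the parental line. All 3 WT-actin arrays lay above every array of the other lines, and NLS-actin and parental arrays overlapped. The means were 889 ± 38.0, 3768 ± 749.8 and 1126 ± 266 (SD, n = 3 each) for NLS-actin, WT-actin and parental cells. VGLL1 was 3.36-fold higher in WT-actin cells than in the parental line (log2 fold change 1.75, SE 0.20, adjusted p = 0.00337 in limma) and its log2 fold change in NLS-actin over WT-actin cells was -2.06 (SE 0.20, adjusted p = 0.000643). For NLS-actin over parental cells it was -0.31 (95% interval -0.75 to 0.12, adjusted p = 0.847).

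A second VGLL1 probe set showed the same pattern at a lower signal. It had 70.2, 125 and 124 in NLS-actin cells, 554, 506 and 514 in WT-actin cells and 92.4, 195 and 139 in the parental line. Its log2 fold change was 1.95 in WT-actin over parental cells (adjusted p = 0.0355 over all probe sets, limma) and -2.35 in NLS-actin over WT-actin cells (adjusted p = 0.00396). The remaining VGLL1 probe set was dim, from 0.697 to 16.0 on all arrays, and its WT-actin signals of 2.25, 3.90 and 0.697 did not stand above the others. Averaging the 3 probe sets gave log2 fold changes of 0.90 (adjusted p = 0.725) and -0.82 (adjusted p = 0.513), and VGLL1 was then not called. The call against the parental line was also lost without the intensity trend in the variance (adjusted p = 0.0832) and with Tukey's test (adjusted p = 0.261). It held without each array in turn, where the log2 fold change was 1.58 to 1.92 and the highest adjusted p was 0.0457.

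**Figure D2:**
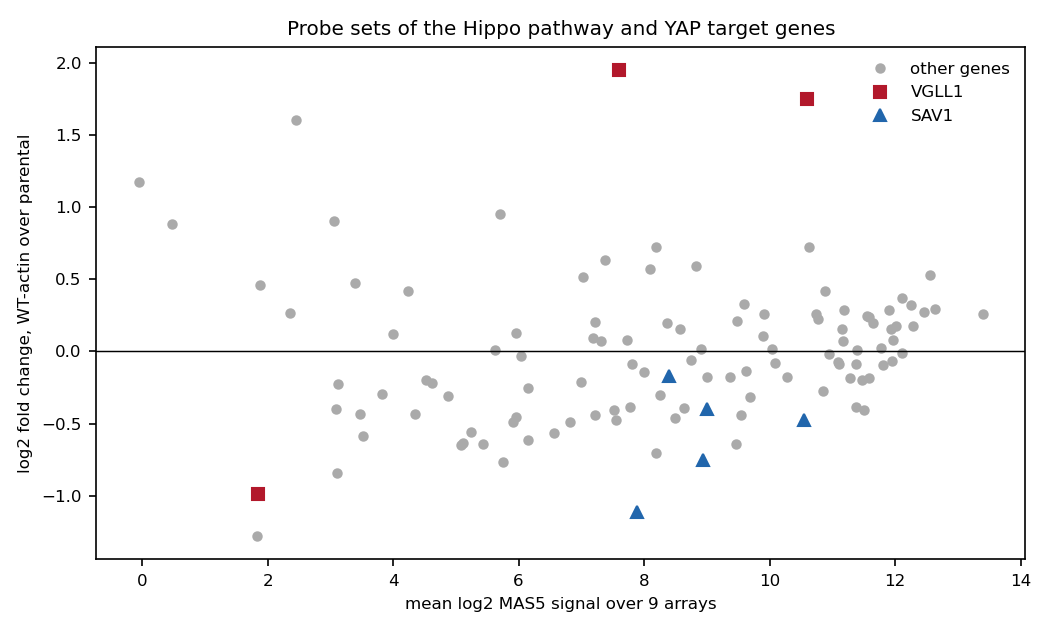
Log2 fold change of WT-actin cells over the parental line (vertical axis) against mean log2 MAS5 signal over 9 arrays (horizontal axis) for the 116 probe sets of the Hippo pathway and YAP target genes, 1 point each. The 2 brighter VGLL1 probe sets (red squares) lie at 1.75 and 1.95, the dim remaining one is below 0, and all 5 SAV1 probe sets (blue triangles) are below 0.

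The other vestigial-like genes did not pass the test. VGLL4, which competes with YAP1 for TEAD factors, had 2483, 3482 and 2281 in NLS-actin cells, 2421, 2454 and 2801 in WT-actin cells and 2603, 3040.4 and 2519 in the parental line. The 3 lines overlapped for VGLL4, and its log2 fold change was -0.01 in NLS-actin and -0.09 in WT-actin over parental cells. VGLL3 had 1991, 1665 and 2251 in NLS-actin cells, 1803, 2840.4 and 1938 in WT-actin cells and 1707, 1381 and 1769 in the parental line. All WT-actin arrays of VGLL3 were above all parental arrays, with a log2 fold change of 0.42 (adjusted p = 0.753). VGLL3 and the genes below that are not among those chosen by the rule in the methods (WWTR1, LATS2, MOB1A, AMOT, AJUBA, CCN2, AXL and AMIGO2) were picked after their values were seen.

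Among the co-activators, YAP1 had 6144, 7072 and 7197 in NLS-actin cells, 7137, 7261 and 6189 in WT-actin cells and 5079, 5649 and 6076 in the parental line. Every array of the actin lines was above every parental array. The log2 fold changes were 0.28 in NLS-actin and 0.29 in WT-actin cells (SE 0.13, adjusted p = 0.775 and 0.739), and quantile normalization gave 0.13 for WT-actin cells. The other YAP1 probe sets gave -0.08 and -0.13 in NLS-actin cells and 0.08 and 0.07 in WT-actin cells, with overlapping arrays. WWTR1, the paralog of YAP1, had log2 fold changes of -0.15 and 0.17 in NLS-actin and WT-actin cells against the parental line, and neither passed. The other WWTR1 probe sets gave -0.50 and -0.45 in NLS-actin cells and -0.31 and -0.44 in WT-actin cells, so that the direction in WT-actin cells depended on the probe set.

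The TEAD factors carry YAP1 and WWTR1 to DNA. TEAD1 had 2795, 2066 and 2876 in NLS-actin cells, 3022, 3879 and 4252 in WT-actin cells and 3225, 2768 and 3389 in the parental line. All NLS-actin arrays lay below all WT-actin arrays, by a log2 fold change of -0.53 (SE 0.18, adjusted p = 0.289), and NLS-actin and parental arrays overlapped. TEAD4 had 4529, 2447 and 3949 in NLS-actin cells, 2276, 4110.1 and 4574 in WT-actin cells and 2807, 3256 and 4429 in the parental line. The lines overlapped fully for TEAD4, with log2 fold changes of 0.04 and 0.03 against the parental line. TEAD2 and TEAD3 gave log2 fold changes from -0.14 to 0.63 in the 3 comparisons, none at an adjusted p under 0.05.

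**Figure D3:**
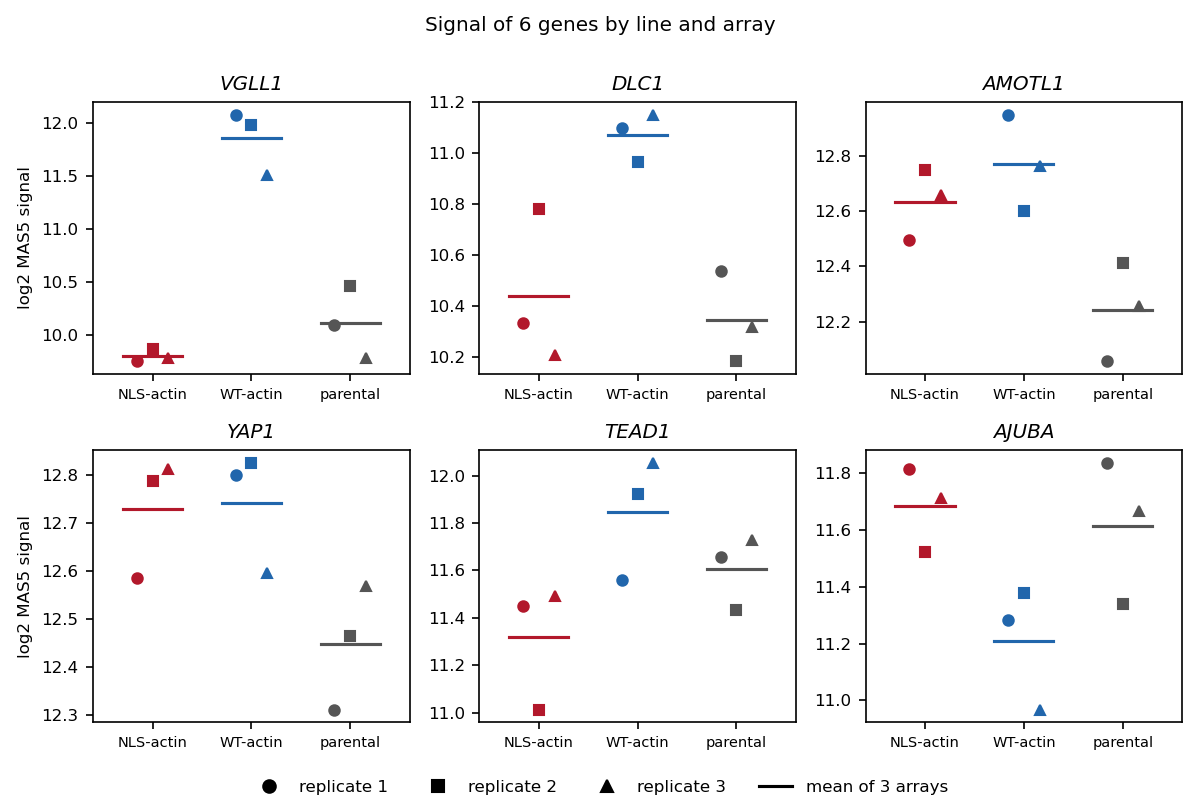
Log2 MAS5 signal of VGLL1, DLC1, AMOTL1, YAP1, TEAD1 and AJUBA on 9 arrays (points, shape by replicate number) in NLS-actin, WT-actin and parental cells, with the mean of 3 arrays as a bar; each panel has its own vertical scale, which does not start at 0. The 3 WT-actin arrays of VGLL1 (2919 to 4341 in linear signal) are clear of the other lines, while the panels of YAP1 and AJUBA span less than 1 log2 unit.

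In the kinase core no gene was called, and 3 of 6 had a positive log2 fold change in NLS-actin cells and 4 of 6 in WT-actin over parental cells. SAV1, the scaffold of STK3 and STK4, had 1477, 1085 and 1430.2 in NLS-actin cells, 979.6, 1203 and 2116 in WT-actin cells and 1910.1, 1720.4 and 2047 in the parental line. The NLS-actin arrays were all below the parental arrays, and WT-actin replicates 1 and 2 were below them while replicate 3 was above. The log2 fold changes were -0.52 in NLS-actin cells (SE 0.25, adjusted p = 0.803) and -0.48 in WT-actin cells (adjusted p = 0.761). All 5 SAV1 probe sets were negative in both lines against the parental line, from -1.11 to -0.30 in NLS-actin cells and from -1.11 to -0.17 in WT-actin cells. The lowest of these, which passed the thresholds of the methods in both lines, had 297, 93.6 and 218 in NLS-actin cells, 143, 242 and 174 in WT-actin cells and 366, 412 and 404 in the parental line. It is of a type that can cross-hybridize, and its unadjusted p was 0.00930 in NLS-actin and 0.00921 in WT-actin cells (adjusted p = 0.571 and 0.688 over all probe sets, limma).

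STK3 had 5263, 4157 and 6273 in NLS-actin cells, 4733, 6236 and 4965 in WT-actin cells and 4239.8, 3749 and 4742 in the parental line. The lines overlapped, with log2 fold changes of 0.29 and 0.32 against the parental line (adjusted p = 0.825 and 0.768). LATS2, the kinase that phosphorylates YAP1, was below every WT-actin array in NLS-actin cells (2937, 2338 and 3024 against 3586, 3173 and 3527), with a log2 fold change of -0.32 (adjusted p = 0.538). On the next brightest LATS2 probe set the WT-actin arrays (510, 1447 and 1679) lay on both sides of the NLS-actin arrays (931, 885 and 921). MOB1A, the LATS partner, had 3348, 3045 and 3573 in NLS-actin cells, 3238, 3819 and 3118 in WT-actin cells and 2959.6, 2913 and 2985 in the parental line. The actin lines were above the parental line on this probe set, but on the next brightest one the NLS-actin arrays (2279, 2081 and 2523) were all below the parental arrays (2965, 2576 and 2791). Averaging the 4 MOB1A probe sets turned the log2 fold change to -0.25 in NLS-actin and -0.14 in WT-actin cells.

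Upstream of the kinases lie angiomotins, which bind YAP1 and actin filaments, the phosphatase PTPN14 and the LIM proteins AJUBA and LIMD1, which restrain LATS. AMOTL1 had 5773, 6887 and 6462 in NLS-actin cells, 7907, 6205 and 6949 in WT-actin cells and 4262, 5447 and 4899 in the parental line. Arrays of both actin lines were all above the parental arrays. The log2 fold changes were 0.39 in NLS-actin (SE 0.14, adjusted p = 0.617) and 0.53 in WT-actin cells (adjusted p = 0.335). The other 3 AMOTL1 probe sets ranged from -0.25 to -0.06 in NLS-actin cells and from 0.09 to 0.33 in WT-actin cells.

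AJUBA had 3606, 2939.6 and 3360.1 in NLS-actin cells, 2489, 2660.1 and 2002 in WT-actin cells and 3661, 2592 and 3250.4 in the parental line. The NLS-actin arrays were all above the WT-actin arrays, with a log2 fold change of 0.48 (SE 0.17, adjusted p = 0.341). The other AJUBA probe sets gave 0.38, 0.14 and 0.44 in this comparison, and their arrays overlapped. LIMD1 and PTPN14 passed the thresholds of the methods only on dimmer probe sets. For LIMD1 that probe set had 3.89, 3.42 and 16.1 in NLS-actin cells, 21.5, 14.8 and 23.1 in WT-actin cells and 27.3, 30.6 and 16.5 in the parental line. The NLS-actin arrays were below the parental arrays there (unadjusted p = 0.0166 and adjusted p = 0.662 in limma over all probe sets), while the brightest LIMD1 probe set differed by -0.03. For PTPN14 it had 173, 126 and 69.5 in NLS-actin cells, 107, 211 and 355 in WT-actin cells and 234, 315 and 254 in the parental line (log2 fold change -1.21 in NLS-actin over parental cells, adjusted p = 0.614 in limma over all probe sets), and its brightest probe set gave 0.05. AMOT, whose signals were 30.1 to 105 on all arrays, had a log2 fold change of 0.95 in WT-actin over parental cells (95% interval -0.05 to 1.95).

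Within lines the YAP targets had a median residual SD of 0.37 on the log2 scale, against 0.39 for the TEAD factors, 0.24 for the kinase core, 0.23 for the upstream regulators and 0.27 over all genes above the median level. CCN1, a secreted matrix protein, had 1366, 436 and 1464 in NLS-actin cells, 680.3, 1672 and 2101 in WT-actin cells and 1909.8, 740.6 and 2431 in the parental line. CCN2, the related growth factor, had 127, 63.4 and 104 in NLS-actin cells, 32.1, 126 and 636 in WT-actin cells and 185, 63.7 and 341 in the parental line. For both genes NLS-actin replicate 2, WT-actin replicate 1 and parental replicate 2 were the lowest of their line, and the lines overlapped. The spread within lines was 0.92 for CCN1 and 1.46 for CCN2 on the log2 scale (residual SD), at the 97.1 and 99.5 percentiles of the 11979 genes above the median level. The log2 fold change of CCN2 in NLS-actin over parental cells was -0.75, with a 95% interval of -2.67 to 1.17, and in WT-actin cells it was -0.21 (-2.13 to 1.71). Without the 3 arrays these values were -1.12 and 0.17. CCN2 also moved with single arrays, to -1.41 in NLS-actin over parental cells without parental replicate 2 and to 0.83 in WT-actin over parental cells without WT-actin replicate 1.

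For NLS-actin over parental cells the log2 fold change of CCN1 was -0.66 (SE 0.55, adjusted p = 0.876 in limma). In a fit of these 6 arrays with the replicate number as a block, 2 of 36 genes were called, CCN1 (adjusted p = 0.0202) and NT5E (adjusted p = 0.0430), against 1.91% of all genes, or 378 genes. The block was adopted because residuals of these same arrays correlated, so its p values are not independent of that choice. CCN1 was lower in the NLS-actin array of each of the 3 numbered pairs, and its second probe set had a log2 fold change of -0.90. The CCN1 value moved with single arrays: it was -0.09 without NLS-actin replicate 2 and -1.17 without parental replicate 2 in the unpaired fit, and -0.61 (adjusted p = 0.437) without the 3 arrays that stood apart. With the ratio of the 3' to the 5' ACTB control probe set as a covariate it was -0.08 in the fit of 9 arrays, and -0.55 (adjusted p = 0.9999) in the paired fit. With line means, the block and the ratio all fitted to 6 arrays, little is left to estimate the spread. The p value of that paired fit therefore cannot show whether the ratio accounts for the call.

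NT5E, the CD73 ectonucleotidase, had 1969, 1457 and 1705 in NLS-actin cells, 2045, 1420.2 and 4687 in WT-actin cells and 2396, 2211 and 2984 in the parental line. The NLS-actin arrays were all below the parental arrays, and WT-actin replicate 3 was higher than every other array. The log2 fold change was -0.56 (SE 0.33, adjusted p = 0.821 without the block). With the block and adjustment over all probe sets, limma gave this NT5E probe set an adjusted p of 0.0951. The CCN1 probe sets had 0.0453 and 0.0337 there. The other 3 NT5E probe sets gave -0.47, 0.05 and 0.00, so that the mean of its probe sets was -0.25.

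ANKRD1, a cardiac ankyrin repeat protein and a frequent readout of YAP1, was dim on every array, with 14.4, 10.6 and 17.5 in NLS-actin cells, 1.46, 6.39 and 22.7 in WT-actin cells and 8.84, 0.756 and 1.13 in the parental line. The NLS-actin arrays were above the parental arrays, and 5 of the 9 signals were below 10. Its log2 fold change of 2.83 (95% interval 0.28 to 5.38, adjusted p = 0.705 in limma) was 0.99 with an offset of 8.08 added to every signal.

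DLC1, listed as a YAP target, had 1290.3, 1761 and 1185 in NLS-actin cells, 2191, 2001 and 2276 in WT-actin cells and 1486, 1163 and 1277 in the parental line. The WT-actin arrays were above all arrays of the other lines. DLC1 had log2 fold changes of 0.73 in WT-actin over parental cells (SE 0.18, adjusted p = 0.251) and -0.63 in NLS-actin over WT-actin cells (adjusted p = 0.182). A second DLC1 probe set gave 0.72 and -0.55, with 248, 290.0 and 262 in NLS-actin cells, 351.1, 378 and 445 in WT-actin cells and 259, 228 and 222 in the parental line, and the other 3 were below 50 on all arrays.

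F3, or tissue factor, had 11476, 8821 and 12869 in NLS-actin cells, 10796.5, 12773 and 11801 in WT-actin cells and 8211, 9020.1 and 12801 in the parental line. The lines overlapped, with log2 fold changes of 0.15 and 0.26 against the parental line, and the second of these was -0.01 after quantile normalization. AXL, a receptor tyrosine kinase, had 6304, 2642 and 6397 in NLS-actin cells, 3507, 5916 and 7542 in WT-actin cells and 4920.0, 3231 and 6844 in the parental line. AMIGO2, an adhesion molecule, had 5026, 2515 and 5011 in NLS-actin cells, 4379, 5944 and 5748 in WT-actin cells and 4778, 2915 and 4945 in the parental line. Both AXL and AMIGO2 were lowest on the same 3 arrays as CCN1 and CCN2, and their log2 fold changes in NLS-actin over parental cells were -0.01 and -0.04, and 0.13 and 0.05 without these arrays. The targets CRIM1, ARHGEF17, ASAP1 and GADD45B had log2 fold changes between -0.19 and 0.20 in the 3 comparisons and none passed. The dimmer ASAP1 probe sets gave -0.53 to -0.22 in NLS-actin and -0.64 to -0.39 in WT-actin over parental cells. A dimmer AXL probe set gave -0.61 and 0.07 in the same comparisons. None of these had an adjusted p under 0.05 in limma.

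**Figure D4:**
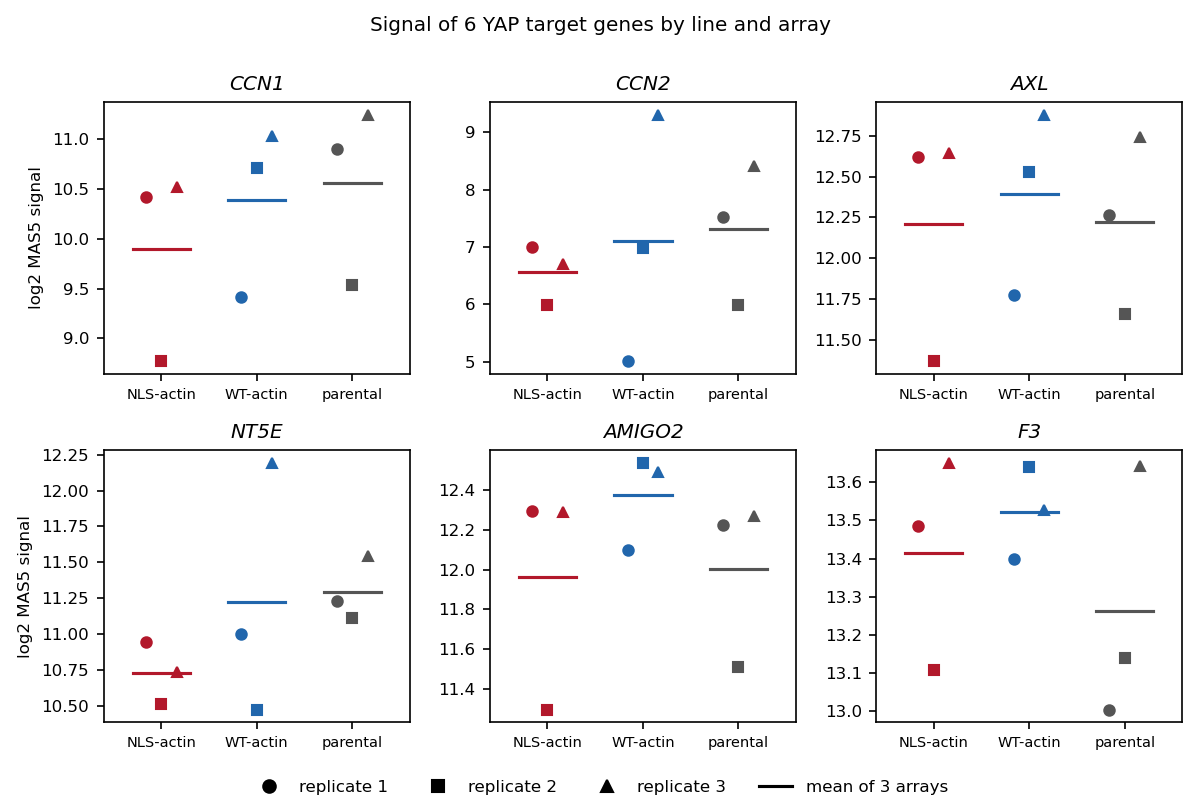
Log2 MAS5 signal of the YAP targets CCN1, CCN2, AXL, NT5E, AMIGO2 and F3 on 9 arrays (points, shape by replicate number) in NLS-actin, WT-actin and parental cells, with the mean of 3 arrays as a bar; each panel has its own vertical scale, which does not start at 0. NLS-actin replicate 2 and parental replicate 2 (squares) and WT-actin replicate 1 (circle) are the lowest of their line in the panels of CCN1, CCN2, AXL and AMIGO2.

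The same arrays were low for much of the list. NLS-actin replicate 2 was the lowest array of its line for 24 of 36 genes, against 34.8% of all genes. For WT-actin replicate 1 this held for 20 of 36 genes (32.6% of all genes) and for parental replicate 2 for 23 of 36 (29.2% of all genes). Among the 12 YAP targets the counts were 10, 7 and 10. All 3 of these arrays were the lowest of their line for 14 genes, among them the targets CCN1, CCN2, ANKRD1, AXL, ASAP1 and AMIGO2 and the pathway genes TEAD1, SAV1, STK3, LATS1 and NF2, against 9.2% of all genes. No other of the 27 possible combinations of arrays held more than 4 of the 36 genes. The median YAP target deviated from the mean of the other arrays of its line by -0.57 in NLS-actin replicate 2, -0.33 in WT-actin replicate 1 and -0.43 in parental replicate 2 on the log2 scale, whereas the median over all genes deviated by 0.09, 0.08 and 0.08.

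The ratio of the 3' to the 5' ACTB control probe set, used as a measure of RNA integrity and labelling, moved with this pattern. NLS-actin and WT-actin cells also carry a β-actin construct, and its part in this ratio was not tested. It was 6.96, 12.8 and 7.98 in NLS-actin replicates 1 to 3, 14.9, 6.79 and 3.82 in WT-actin replicates and 4.998, 7.96 and 6.28 in parental replicates. The highest ratio of each line was on the array where the YAP targets were lowest. It was used as a covariate, with the values for CCN1 given above, but whether it causes the pattern was not tested. VGLL1 did not share the pattern: NLS-actin replicate 2 and parental replicate 2 were its highest arrays in their lines, as was WT-actin replicate 1. The same held for TEAD2, AMOTL1 and ARHGEF17, the last of them listed as a YAP target.

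**Figure D5:**
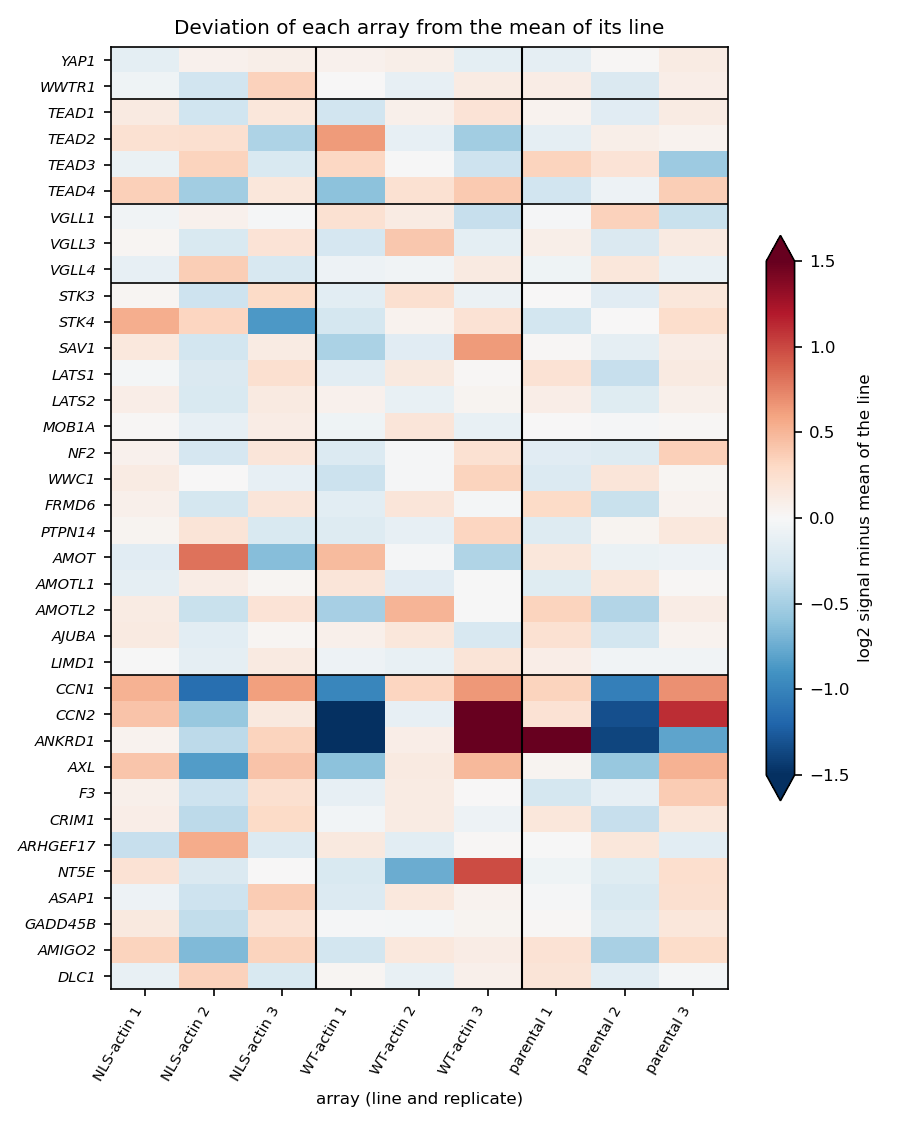
Log2 signal of each of 36 genes (rows, grouped by role) on each array (columns) minus the mean of its line, in colour, with values beyond 1.5 drawn at the end of the scale. NLS-actin replicate 2, WT-actin replicate 1 and parental replicate 2 are mostly blue (low) in the rows of the YAP targets CCN1, CCN2, AXL and AMIGO2, and VGLL1 is pale or red there.

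Counts of genes whose arrays did not overlap between lines were set beside the same counts over all genes. In WT-actin cells 8 of 36 genes were above every parental array (VGLL1, DLC1, AMOTL1, YAP1, VGLL3, AMOT, LATS2 and MOB1A), against 4.71% of all genes, and 0 were below, against 7.6%. After quantile normalization 9 were above and 1, AJUBA, was below, against 5.84% and 5.5% of all genes. In NLS-actin cells 4 genes were above the parental arrays (AMOTL1, ANKRD1, YAP1 and MOB1A) and 2 below (SAV1 and NT5E), against 6.44% and 7.5% of all genes. Quantile normalization changed these to 3 above (YAP1, TEAD2 and MOB1A) and 3 below (TEAD1, SAV1 and NT5E), against 7.4% and 6.36%. In NLS-actin over WT-actin cells 1 gene was above (AJUBA) and 4 were below (VGLL1, DLC1, TEAD1 and LATS2), against 8.12% and 5.73%. Apart from VGLL1 none of these genes was called in the fit of all 9 arrays.

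The median log2 fold change of the 36 genes was 0.17 in WT-actin over parental cells, with 23 above 0, and -0.14 in NLS-actin over WT-actin cells, with 7 above 0. Over all genes the medians were -0.06 and 0.03, and 43.7% and 53.4% were above 0. Of the 3571 genes with a mean log2 signal of 11 or more, 70.1% were above 0 in WT-actin over parental cells, and of the 22 pathway genes and targets at that level 15 were. After quantile normalization these were 49.4% of the bright genes and 14 of the 22. In NLS-actin over WT-actin cells 41.7% of these bright genes and 3 of the 22 were above 0 (49% and 3 of the 22 after quantile normalization). In that comparison 6 of 6 genes of the kinase core and 10 of 12 YAP targets were below 0. STK3, MOB1A and SAV1 of the kinase core were close to it, at -0.03, -0.03 and -0.04. Averaging the probe sets of a gene gave a median of 0.02 in WT-actin over parental cells and -0.18 in NLS-actin over parental cells. Medians over all genes with such averaging are not given here, so a shift shared by all genes cannot be told apart.

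Further genes of the pathway were taken from a list of 53, which holds other Hippo regulators and YAP targets, and 49 were measured. None was called in any comparison in the fit of all 9 arrays, and 3, 2 and 4 had an unadjusted p under 0.05 in NLS-actin and WT-actin cells against the parental line and in NLS-actin over WT-actin cells, against 6.44%, 6.69% and 9.47% of all genes. The paired fit of NLS-actin and parental arrays called 2 of the 49, against 1.91% of all genes: TGFB2, a growth factor (log2 fold change -0.97, adjusted p = 0.0457 paired and 0.821 unpaired, limma), and GADD45A, a stress-induced gene (-0.53, adjusted p = 0.0497 paired and 0.765 unpaired). Their median log2 fold changes were -0.08, 0.03 and -0.05. By the thresholds of the methods 4, 1 and 4 passed, all lower, against 4.17%, 4.07% and 3.55% of all genes. FAT4, an atypical cadherin, had 20.9, 9.83 and 13.6 in NLS-actin cells, 56.5, 75.9 and 66.8 in WT-actin cells and 47.1, 20.8 and 37.5 in the parental line. The NLS-actin arrays were below all WT-actin arrays (log2 fold change -2.23, adjusted p = 0.0846 in limma). RBMS3, an RNA-binding protein, had 50.9, 109 and 58.1 in NLS-actin cells, 197, 185 and 136 in WT-actin cells and 136, 122.9 and 87.7 in the parental line on its brightest probe set. All NLS-actin arrays were below all WT-actin arrays for RBMS3 (log2 fold change -1.31, adjusted p = 0.175). MAP4K4, a kinase that can phosphorylate LATS, had 49.4, 84.8 and 34.0 in NLS-actin cells, 54.2, 48.2 and 103.4 in WT-actin cells and 127.8, 121.4 and 142.6 in the parental line on a dim probe set, and both actin lines lay below the parental arrays there. The brightest of its 5 probe sets went the other way, with log2 fold changes of 0.10 in NLS-actin and 0.41 in WT-actin over parental cells (adjusted p = 0.928 and 0.600 in limma), and its WT-actin arrays were all above the parental arrays. THBS1, the matrix protein thrombospondin, and DOCK5, a guanine nucleotide exchange factor, passed on probe sets with signals from 0.672 to 155.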

How the data were processed

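RNA of NLS-actin, WT-actin and parental HaCaT cells was measured on 9 Affymetrix U133 Plus 2.0 arrays, 3 per line. As deposited by the authors, the values are MAS5 signals, that is, intensities on a linear scale with a common trimmed mean per array (500.04 to 500.06 after a trim of 2% at each end). The number of arrays limits the precision. Median signals were 29.67 to 43.26, and 25.1% to 31.1% of signals per array were below 10.

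Values were taken as log2 with no offset. After removal of 62 control probe sets, 41091 of 54613 probe sets carried 1 gene symbol, updated through Entrez identifiers for 41037. For each gene the brightest probe set was taken. The linear model was fitted with limma 3.58.1 (R 4.3.3) to all 9 arrays with a mean for each line and a variance trend with signal, and Benjamini-Hochberg adjustment ran over 19775 genes in each of 3 comparisons. With 3 arrays against 3, the smallest exact permutation p is 0.1. The methods' thresholds, a fold above 2 and a p under 0.05 taken here as unadjusted, were used on each probe set with this fit. Tukey's test, which the methods name for the study as a whole, was an alternative.

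Array numbers 1 to 3 come from the labels, which do not say what they mark. Residuals of arrays of the same number correlated at 0.235, 0.75 and 0.389 between parental and NLS-actin arrays, so these were taken as pairs. Parental 1 with NLS-actin 3 (0.328) and parental 3 with NLS-actin 1 (0.489) correlated about as well, and replicates 2 alone form a distinct pair. By number, WT-actin arrays did not pair (-0.543 to 0.484), but WT-actin 1 correlated with parental 2 (0.573) and NLS-actin 2 (0.589). The pairs were thus chosen from the data that the paired fit tests, and its adjusted p values are not independent of that choice. The paired fit is given where it changes a call.

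The genes, the further gene lists and the alternatives were chosen with earlier results of these data known. Array values are given for genes called without or with the block, genes past the methods' thresholds, the gene with the highest signal of each role and that with the smallest p of its role against the parental line, and for others picked after their values were seen. Promoter sequences came from RefSeq. The models were tested on simulated data. Alternatives were quantile normalization, an offset, a filter on dim probe sets, no variance trend, blocks, a fit of 2 lines, averaging a gene's probe sets, leaving out probe sets that can cross-hybridize, Tukey's test and omission of each array. Chosen after the data were seen were the block in a fit of 2 lines, its exchanged pairing and its combination with the ACTB ratio.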

Additional observations from a re-analysis of the deposited data

How the results depend on the processing

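No direction of a called gene was reversed. Of the 36 genes 0 were called in NLS-actin over parental cells. With the replicate block in a fit of these lines only, 2 were called (CCN1 and NT5E), and with NLS-actin 1 and 3 exchanged in the pairing 3 were (SAV1 in addition, adjusted p = 0.0352 in limma), against 1.91% and 2.58% of all genes, while leaving out each array in turn gave 0. In WT-actin over parental cells the count of 1 became 0 without the intensity trend in the variance, 0 with a gene's probe sets averaged and 0 with Tukey's test, and was 1 to 1 with each array left out in turn. In NLS-actin over WT-actin cells the count of 1 became 0 with probe sets averaged and 0 with Tukey's test, and stayed at 1 with each array left out. By the methods' thresholds the 4 genes in NLS-actin over parental cells became 2 without dim probe sets, 1 with probe sets averaged, 2 without cross-hybridizing probe sets, 1 with Tukey's test, 2 with the ACTB ratio as a covariate, 2 without the 3 deviating arrays, and 2 to 4 with each array left out in turn, with 2 without any one of the NLS-actin arrays. The 2 genes in WT-actin over parental cells became 0 with averaging, 1 without cross-hybridizing probe sets, 1 with Tukey's test, 1 without the 3 deviating arrays, and 2 to 6 with each array left out, with 6 without WT-actin replicate 3. The 2 genes in NLS-actin over WT-actin cells became 1 with an offset, 1 without dim probe sets, 1 in a fit of 2 lines, 1 with the replicate block in that fit, 1 without cross-hybridizing probe sets, 1 with Tukey's test, 1 with the ACTB ratio, 0 with averaging, and 1 to 3 with each array left out, with 1 without parental replicate 1 or WT-actin replicate 3. The cause of these changes was not tested. With 3 arrays per line the 95% interval of a log2 fold change spanned from -2.67 to 1.17 for CCN2 and from -0.12 to 0.46 for MOB1A in NLS-actin over parental cells.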
